A study of Mus musculus with 6 samples.

Results

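The IFIT, ISG15 and Mx antiviral effectors were described here as 10 genes, Ifit1, Ifit2, Ifit3, Ifit3b, Isg15, Usp18, Rsad2, Mx1, Mx2 and Ifi44, of 24728 genes with a value in the FPKM table. They were picked by symbol because their FPKM (fragments scaled to transcript length and to the number of mapped fragments) differed between the groups of this study, so that their own differences are given as a description and without a test. RNA-seq was performed on cultured mouse female germline stem cells (FGSCs) with 3 control samples and 3 samples in which CTCF, an architectural protein of chromatin, was knocked down by a short hairpin RNA (shCTCF). Both groups were of strain C57BL/6 per the labels, at more than 20 passages, and were kept on inactivated STO fibroblast feeders. Per the study's methods the FGSCs came from ovaries of neonatal Ddx4-Cre;mT/mG mice, in which Cre is driven by the germ cell gene Ddx4, and the hairpin was delivered by lentivirus with puromycin selection. What the control cells received is not given in the sources used here. Neither do these sources say whether the samples of a group were separate cultures, so that the p-values below measure only the spread between these samples, which may be technical.

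Type I interferons are secreted proteins that bind a receptor of Ifnar1 and Ifnar2 chains and act through Janus kinases on transcription factors of the STAT and IRF families. These factors bind the interferon-stimulated response element (ISRE) in promoters and switch on antiviral genes, of which the IFIT, ISG15 and Mx genes are among the best known. IFIT proteins bind viral RNA, Isg15 is a ubiquitin-like protein that is attached to other proteins, Usp18 removes it again, and Mx proteins are GTPases that block viral nucleocapsids.

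The RefSeq promoter sequences of the effectors were examined first, because the genes were high together and the element is the one known for such genes. The table (build GRCm38.p6) held 8 promoters of 7 of the 10 genes, from 250 bases before to 50 bases after the start site, and it had no entry matched for Usp18, Mx1 and Mx2. The letters GAAANNGAAA, a pair of ISRE core repeats, were searched on both strands (TTTCNNTTTC on the other one), and matches that overlapped each other were each counted. They were present in 5 of the 8 promoters, compared with 1131 of 32851 promoters (3.44%) in the whole table. A match is a description of the letters and not of a bound site.

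The 5 promoters with a match are shown together with the downstream promoter of Ifit2, which had none. Each is given 5′ to 3′ on the strand of the gene, over the 200 bases before the start, and capitals mark the ISRE pairs. Isg15 lies at chr4:156200819-156201018 on the minus strand and Rsad2 at chr12:26456453-26456652 on the minus strand. The others lie on the plus strand, Ifit1 at chr19:34640689-34640888, Ifit3 at chr19:34583329-34583528, Ifit3b at chr19:34607757-34607956 and Ifit2 (downstream start) at chr19:34550888-34551087.
Isg15: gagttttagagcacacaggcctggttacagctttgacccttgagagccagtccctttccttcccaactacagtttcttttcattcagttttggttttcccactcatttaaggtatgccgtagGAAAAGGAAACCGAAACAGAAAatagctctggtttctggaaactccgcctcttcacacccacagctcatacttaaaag
Ifit1: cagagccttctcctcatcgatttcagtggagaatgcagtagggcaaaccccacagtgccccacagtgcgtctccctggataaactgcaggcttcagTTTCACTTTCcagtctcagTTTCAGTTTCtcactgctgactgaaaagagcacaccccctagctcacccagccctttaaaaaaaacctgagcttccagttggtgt
Ifit3: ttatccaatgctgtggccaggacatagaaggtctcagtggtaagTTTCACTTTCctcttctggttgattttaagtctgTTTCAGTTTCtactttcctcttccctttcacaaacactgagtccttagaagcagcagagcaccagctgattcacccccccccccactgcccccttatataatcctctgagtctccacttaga
Ifit3b: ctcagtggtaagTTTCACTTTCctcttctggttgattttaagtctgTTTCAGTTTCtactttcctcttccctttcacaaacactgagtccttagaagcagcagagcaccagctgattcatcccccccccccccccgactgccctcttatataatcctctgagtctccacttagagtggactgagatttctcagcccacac
Rsad2: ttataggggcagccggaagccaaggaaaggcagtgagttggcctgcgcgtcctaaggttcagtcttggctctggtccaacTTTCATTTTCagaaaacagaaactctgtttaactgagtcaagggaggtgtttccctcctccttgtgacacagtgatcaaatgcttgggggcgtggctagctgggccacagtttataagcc
Ifit2 (downstream start): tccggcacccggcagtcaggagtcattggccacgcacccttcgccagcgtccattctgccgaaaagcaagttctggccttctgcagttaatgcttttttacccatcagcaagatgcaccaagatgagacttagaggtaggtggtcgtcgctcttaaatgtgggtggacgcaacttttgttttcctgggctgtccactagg

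The promoter of Isg15 held 3 overlapping pairs that began 78, 72 and 66 bases before the start, all on the strand of the gene. Ifit1 held pairs at 104 and 85 bases, Ifit3 at 156 and 122 bases, Ifit3b at 188 and 154 bases and Rsad2 at 120 bases before the start, all on the other strand. The same letters, TTTCACTTTC followed by TTTCAGTTTC, stood in Ifit1, Ifit3 and Ifit3b. The promoters of Ifit3 and Ifit3b were identical at 259 of 260 aligned bases, with 80 further positions opposite a gap, and their longest identical run was 169 bases. No match was found within these windows of Ifi44 or of either Ifit2 start. The palindromic letters TTCNNNGAA, which describe the core of the gamma-interferon activation site, were found only in the upstream Ifit2 promoter among these 8, and in 8.3% of all promoters. The letters TATAAA on the strand of the gene were in 0 of the 8, compared with 8.32% of all promoters. In the lists of other pathway genes described below, ISRE pairs were present in 22 of 41 other interferon-stimulated genes with a promoter entry, in 2 of 8 STAT and IRF factors, in 0 of 8 receptor chains and Janus kinases and in 0 of 5 genes of Isg15 conjugation. They were also present in 11 of 20 interferon genes, which were listed at 0 in all samples, so that the letters were not limited to genes that were high in shCTCF.

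**Figure D1:**
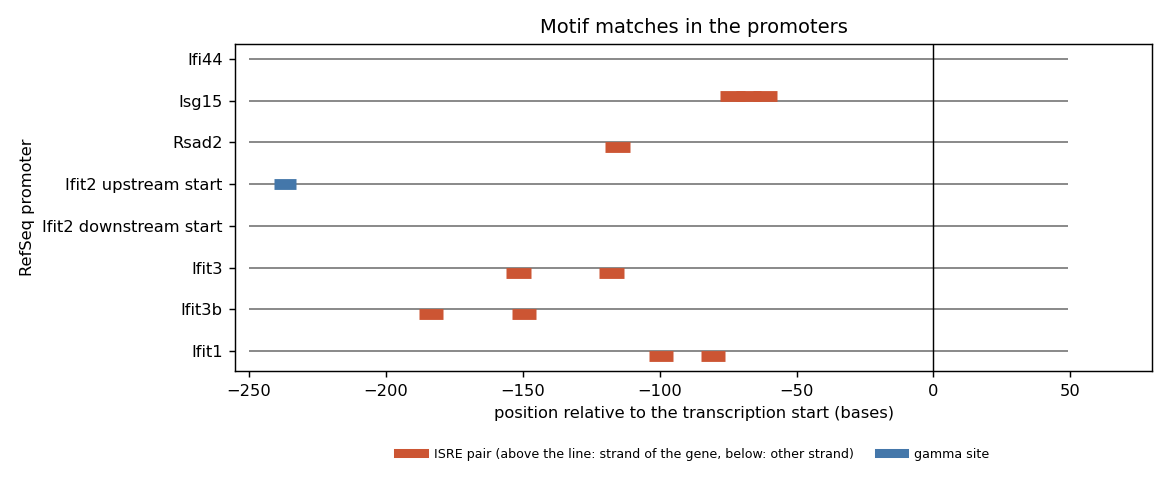
Position of motif matches (x axis, bases relative to the transcription start) in the 8 RefSeq promoters of 7 effector genes, one line each. ISRE pairs are orange, above the line on the strand of the gene and below it on the other strand, and the gamma site is blue; 5 promoters carry ISRE pairs between 188 and 66 bases before the start.

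Before the effectors, the knockdown and the identity of the cells were checked. Ctcf was at 58.2, 56.1 and 53.5 FPKM in control replicates 1, 2 and 3 and at 0.74, 0.55 and 0.629 FPKM in the shCTCF samples, with 0 counts in all samples of the count table, in which fragments shared by several transcript accessions were not assigned. Total counts were between 1686052 and 7044272, and control replicate 2 was the smallest library, in which 3 counts stood for 1.78 CPM (counts scaled to the library total) compared with 0.426 to 0.564 CPM in the other samples. Of 8 female germline markers, Gfra1 was listed at 0 in all samples, Ddx4, Dazl and Pou5f1 were at 0 in the controls and at most 0.182 FPKM after knockdown, and the summed level of the list was between 0.0694 and 1.27 FPKM in the controls and between 11.3 and 12.2 FPKM in shCTCF, of which Ifitm3, itself an interferon-stimulated gene, made up 10.8 ± 0.327 FPKM (SD, n = 3). Dppa3 and Nanos3 were listed at 0 FPKM in all samples, and Prdm1 was at 0.0751 FPKM in the controls and 0.788 FPKM in shCTCF on average. In these RNA-seq samples the germline label was therefore not borne out by its defining markers. By contrast, the study reported Ddx4 (Mvh), Dazl, Gfra1, Pou5f1 (Oct4) and Dppa3 (Stella) by RT-PCR in its cultured FGSCs. It also reported MVH protein by immunofluorescence. The 10 mast cell markers summed to between 1330 and 1380 FPKM in the controls and to between 1500 and 1570 FPKM in shCTCF. Most of this came from Kit at 575 ± 35.8 and 787 ± 14.4 FPKM, Gata2 at 501 ± 43.5 and 560 ± 11.6 FPKM and Cpa3 at 281 ± 56.7 and 88 ± 13.1 FPKM (SD, n = 3 each). Hdc rose from 4.25 ± 0.219 to 87.2 ± 7.58 FPKM (SD, n = 3), Cma1 from 1.68 to 3.67 FPKM and Tpsab1 from 0.139 to 2.08 FPKM. Ms4a2, Mcpt4 and Tpsb2 were at most 0.557 FPKM in any sample, and Fcer1a was at 0. The 10 macrophage and dendritic cell markers summed to between 101 and 111 FPKM in the controls and to between 266 and 325 FPKM in shCTCF. Most of the control level came from Adgre1, at 56.7 ± 0.661 and 73.7 ± 10.4 FPKM, and Cd68, at 44.7 ± 4.66 and 137 ± 7.64 FPKM (SD, n = 3 each). Of the 10 markers, 4 of the 4 tested were higher, beside 28.8% of all genes tested. Besides Adgre1 and Cd68 these included Cd74, at 2.87 ± 0.0546 and 78.1 ± 12 FPKM. Lyz2, at 0.0274 and 3.29 FPKM, reached the mean of 1 FPKM needed for testing only through shCTCF. Of those not tested, Csf1r was lower, at 0.14 and 0.0689 FPKM. Itgax, Cd14, Ly6c2 and H2-Ab1 were at most 0.602 FPKM in any sample, and Siglech was listed at 0. The 10 fibroblast markers summed to between 10.1 and 10.8 compared with 8.62 to 8.97 FPKM, and the 8 lymphocyte markers to between 0.55 and 1.78 compared with 1.5 to 1.93 FPKM. The part of other cell types in the results below was not tested, and in bulk RNA fewer cells of a type and less RNA per cell cannot be told apart.

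All 10 effectors were low or absent in the controls and present in each shCTCF sample. Summed over the 10 genes, the level was 8.35, 6.69 and 6.48 FPKM in control replicates 1, 2 and 3, and 826, 808 and 793 FPKM in the shCTCF samples. This was 0.00143% to 0.0019% of all FPKM in the controls and 0.175% to 0.182% after knockdown. In each control only 2 of the 10 genes, Isg15 and Ifit2, reached 1 FPKM, whereas all 10 did so in each shCTCF sample. The groups did not overlap for any of the 10 genes. Among all 9974 genes that averaged 1 FPKM or more, 30.8% were higher and 45.8% lower with no overlap, and nothing is read from this comparison since the genes were chosen on it. The median log2 fold change of the 10, taken on log2(FPKM + 1), was 5.66, and that of all genes tested was −0.17. With all samples brought to one median FPKM, the median fold change of all genes became −0.01 and the share of higher genes among those called (limma, Benjamini-Hochberg adjusted p under 0.05) rose from 39.5% to 49.1%, while the 10 effectors were all still higher. Of the 10 genes, 8 passed the filter on low counts, and the 2 that did not, Ifit2 and Mx2, share nearly all of their exon bases with another accession. Mx1, which passed, shares 93.1% of its exon bases in the same way.

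**Figure D2:**
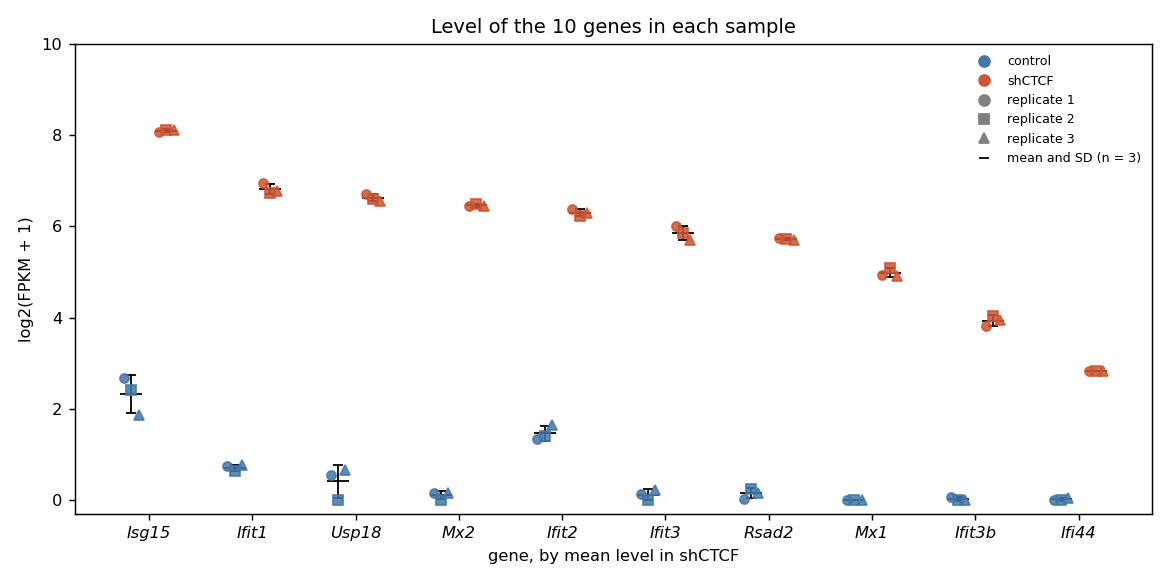
Level of the 10 effectors (y axis, log2(FPKM + 1)) by gene (x axis), with a point for each control and shCTCF sample and bars for the group mean and SD (n = 3). Isg15 is the highest and Ifi44 the lowest gene in shCTCF, and no control value reaches a shCTCF value of the same gene.

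The 4 IFIT genes form a cluster on chromosome 19, in the order Ifit2, Ifit3, Ifit3b and Ifit1, all on the plus strand. Ifit1, whose protein recognises the 5′ end of RNA that lacks the methyl marks of the host cap, occupies 34715379 to 34724499 in mm9, the build of the files, with 2 exons. It was at 0.669, 0.548 and 0.692 FPKM in the controls and at 122, 106 and 109 FPKM in shCTCF. All 3 shCTCF samples were far above the controls, which varied little. The means were 0.636 ± 0.0775 and 112 ± 8.75 FPKM (SD, n = 3), a 177-fold difference. In the count table it had 22, 4 and 23 counts compared with 3519, 2768 and 3567, a ratio of 171 after scaling to the library totals, with a 95% counting interval of 129 to 231, which like the intervals below covers counting error only.

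Ifit2, which binds RNA and partners with the other IFIT proteins, was at 1.52, 1.65 and 2.13 FPKM in the controls and at 82.3, 73.7 and 77.8 FPKM in shCTCF. It was the highest of the IFIT genes in the controls but only the second highest after knockdown, and its means of 1.77 ± 0.325 and 77.9 ± 4.3 FPKM (SD, n = 3) differed 44.1-fold. On FPKM the listed signal lay on different annotated transcripts in the groups. NM_008332, which starts upstream at 34625184, was at 1.21, 1.65 and 2.13 FPKM in the controls and at 0 in all 3 shCTCF samples. NM_001355262, which starts 394 bases downstream at 34625578, was at 0.309, 0 and 0 FPKM in the controls and held all of the signal in shCTCF. Both end at 34651024, and 91.7% of the exon bases of the upstream and 95.1% of the downstream transcript are shared, so that the division rests on few bases and on the estimate by Cufflinks. In the count table the upstream transcript had 6 counts in each group and the downstream one 0, since fragments in shared exons were left unassigned there, so that these counts do not measure the gene.

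**Figure D3:**
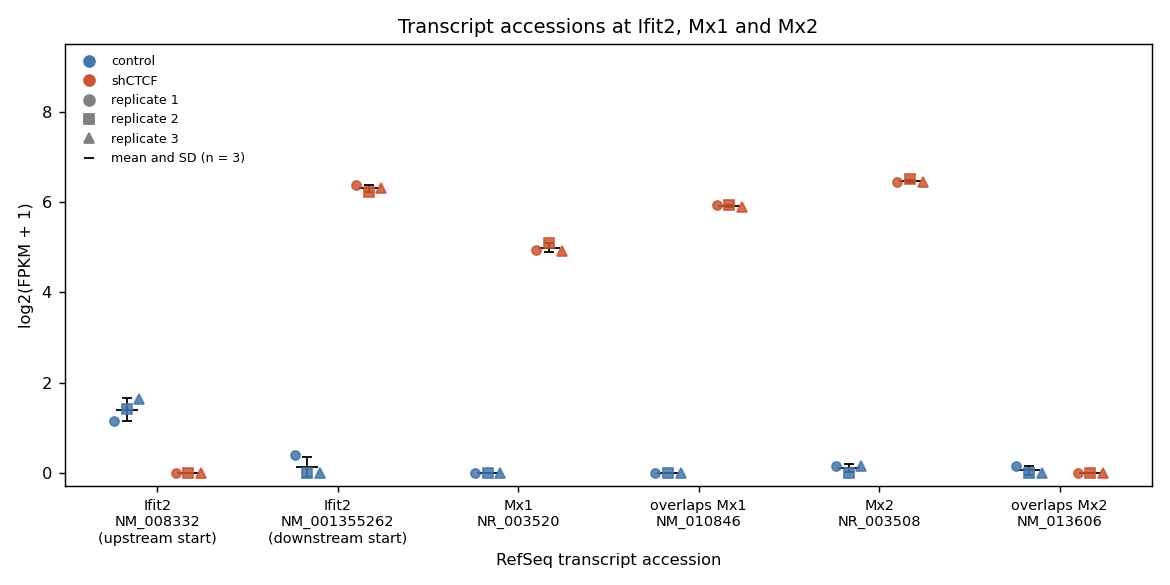
Level (y axis, log2(FPKM + 1)) of the transcript accessions at Ifit2, Mx1 and Mx2 that share exons (x axis), with a point for each sample and bars for the mean and SD (n = 3). At Ifit2 the accession with the upstream start is above 0 FPKM only in the controls, although it had 6 counts in each group. At Mx1 the accession without a symbol is higher than the one named Mx1.

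Ifit3, a partner of the other IFIT proteins, was at 0.093, 0 and 0.174 FPKM in the controls and at 63.7, 57.3 and 50.8 FPKM in shCTCF. Its coordinates are 34658019 to 34663472. Its counts were 2, 0 and 4 compared with 1310, 1106 and 1277, a ratio of 523 with an interval of 240 to 1430, which became 847 without control replicate 3. Ifit3b, its close copy at 34682447 to 34687891, was at 0.0462, 0 and 0 FPKM in the controls and at 13, 15.5 and 14.4 FPKM in shCTCF. It had 1 count in the controls and 952 in shCTCF, a ratio of 809 with an interval of 145 to 32000, which became 437 without control replicate 3 and at least 154 without control replicate 1, the one sample with that count. Both were essentially absent in the controls, and in shCTCF Ifit3 was above Ifit3b in every sample. As the pair are near copies, the assignment of reads between them is uncertain.

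**Figure D4:**
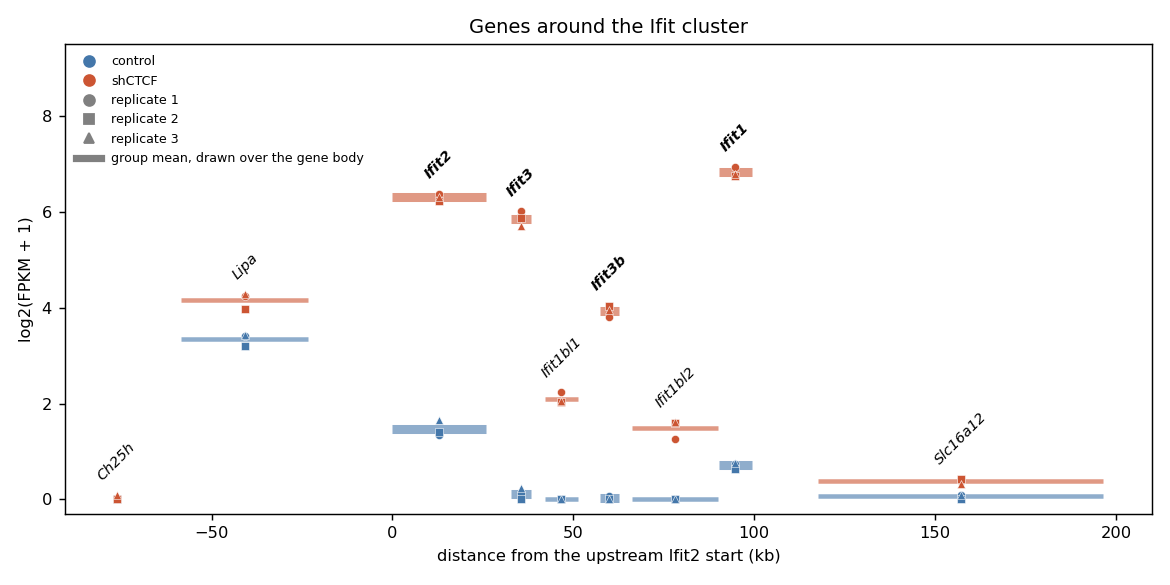
Level (y axis, log2(FPKM + 1)) of the genes around the Ifit cluster against distance from the upstream Ifit2 start (x axis, kb), with points for the 6 samples and horizontal bars at the group means drawn over each gene body. The 4 Ifit genes (bold) are at 14.3 to 112 FPKM on average in shCTCF, and Ch25h and Slc16a12 lie near 0 in both groups.

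Isg15, at 155573533 to 155574927 on the minus strand of chromosome 4 with 2 exons, was the highest of the 10 genes in both groups. It was at 5.41, 4.3 and 2.64 FPKM in the controls and at 266, 278 and 275 FPKM in shCTCF, with means of 4.12 ± 1.39 and 273 ± 6.07 FPKM (SD, n = 3) and a 66.3-fold difference. The controls spread between 2.64 and 5.41 FPKM, while the coefficient of variation of the shCTCF samples was 2.22%. Its counts were 44, 9 and 34 compared with 2227, 2135 and 2620, a ratio of 68.2 (55.2 to 85.3). Usp18, the protease that takes Isg15 off its targets and also dampens receptor signalling, lies at 121195924 to 121220935 on chromosome 6. It was at 0.472, 0 and 0.589 FPKM in the controls and at 104, 96.8 and 93.9 FPKM in shCTCF. Its counts were 30, 2 and 19 compared with 1929, 1631 and 2065, a ratio of 93.8 (71.2 to 126).

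Rsad2 (viperin), an enzyme that makes a chain-terminating nucleotide, lies at 27127608 to 27141317 on the minus strand of chromosome 12. It was at 0.0246, 0.191 and 0.115 FPKM in the controls and at 52.5, 51.8 and 50.8 FPKM in shCTCF, a 470-fold difference of the means that became 742-fold without control replicate 2. Its counts were 2, 2 and 5 compared with 2316, 2035 and 2545, a ratio of 651 (343 to 1420). Cmpk2, the nucleotide kinase gene 12.8 kb away that is usually induced together with it, was at 0 FPKM in the controls and at 0, 0.0693 and 0.0279 FPKM in shCTCF, with 4 counts in all. Ifi44, at 151393887 to 151412923 on the minus strand of chromosome 3, was the lowest of the 10 in shCTCF. It was at 0, 0 and 0.0299 FPKM in the controls and at 6.12, 6.16 and 6.15 FPKM in shCTCF, with 1 compared with 621 counts and a ratio of 528 (94.4 to 20900), which became 301 without control replicate 1 and at least 94.9 without control replicate 3. Its shCTCF samples had the smallest relative spread of the 10 genes, with a coefficient of variation of 0.364%. Nothing is read from this, since the counting error of its 206, 186 and 229 counts in shCTCF is larger. Its relative Ifi44l, 8.78 kb away, was listed at 0 in all samples.

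Mx1 and Mx2, on chromosome 16, are known to be defective as proteins in many inbred mouse strains, including C57BL/6, and the accessions that carry these symbols are records of non-coding transcripts. Mx1 (97668642 to 97684513, minus strand) was listed at 0 in all controls and at 29.6, 33.2 and 29.2 FPKM in shCTCF. Its counts were 0 in the controls and 25, 15 and 28 in shCTCF, at least 19.3-fold higher against a floor of 3 counts over the control group. A further accession, NM_010846, shares 93.1% of the exon bases of Mx1 and had no symbol in the naming table. It was at 0 in the controls and at 60, 60.1 and 58.4 FPKM in shCTCF, with 138, 112 and 156 counts, so that the sum of both reached 90.1 ± 2.89 FPKM (SD, n = 3). Fragments in the shared exons were left unassigned on counts. The counts of Mx1 and its bound therefore rest on 185 unshared exon bases. Mx2 (97757688 to 97782508, plus strand) was at 0.115, 0 and 0.108 FPKM in the controls and at 85.8, 89.6 and 85.9 FPKM in shCTCF. It had 0 counts in all samples, and 99.7% of its exon bases are shared with NM_013606, which was at 0 FPKM in shCTCF.

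Ordered by FPKM in shCTCF, the genes ran Isg15, Ifit1, Usp18, Mx2, Ifit2, Ifit3, Rsad2, Mx1, Ifit3b and Ifi44. The ranges of the 3 samples were apart for each neighbouring pair except Ifit3 and Rsad2, which overlapped. With the accession without a symbol added, the range of Mx1 (87.6 to 93.3 FPKM) overlapped that of Mx2. Replicates 1 and 2 of shCTCF were each the highest for 5 of the 10 genes and replicate 3 for 0. The coefficients of variation in shCTCF were between 0.364% and 11.2%.

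The genes upstream and around the effectors in the same pathway were taken from 8 lists with 124 genes, of which 88 were tested on FPKM. Of these 75 were higher and 4 lower in shCTCF, with a median log2 fold change of 2, beside 28.8% called higher and 44.2% called lower among all 9974 genes tested. On counts 52 of 59 tested were higher and 1 lower, beside 34.8% and 34.3% of all 7339 genes. The lists were chosen with earlier results of these data known, so that these shares are a description. Many of their genes reached a mean of 1 FPKM only through shCTCF, so that they could be called only as higher. Among these were Oas1a and Zbp1, which also had 0 counts in the controls. Others were Gbp2, Igtp, Irf7 and Ifih1, with control means of 0.123, 0.995, 0.543 and 0.973 FPKM. All 21 interferon genes, among them Ifnb1, were listed at 0 FPKM and 0 counts in all 6 samples, at a depth at which 3 counts stood for 0.426 to 1.78 CPM. Among 8 tested receptor chains and Janus kinases, 5 were higher and 1 lower. The chains of the gamma-interferon receptor moved in opposite directions. Ifngr1 was the lower gene, at 18.7 ± 1.29 and 11.5 ± 1.47 FPKM (SD, n = 3, limma, log2 fold change −0.66, adjusted p = 0.000772), and it was lower on counts as well (edgeR, −0.55, adjusted p = 0.000946). Ifngr2 rose from 16.9 ± 1.46 to 84.7 ± 4.93 FPKM (SD, n = 3, limma, log2 fold change 2.26, adjusted p = 3.42e-07), and Jak2, a kinase of that receptor, from 14.8 ± 1.31 to 52.6 ± 0.932 FPKM (1.77, adjusted p = 9.15e-07). Of the type I receptor, Ifnar2 had a log2 fold change of 0.58 (adjusted p = 4.93e-05), while that of Ifnar1 was 0.06 on FPKM (SE 0.08, adjusted p = 0.558) and 0.23 on counts (edgeR, adjusted p = 0.0214).

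Of 8 STAT and IRF factors tested on FPKM, 7 were higher and 1, Irf3, lower. On counts only 1 of them, Stat2, could be tested, with a log2 fold change of 3.54 (edgeR, adjusted p = 8.55e-12). Irf7 had 0 counts in all samples, and the summed counts in control and shCTCF were 8 and 6 for Irf1 and 4 and 15 for Irf9. The changes given for these genes rest on FPKM alone, as does that of Jak2, with 0 and 1 counts. Irf7, the factor that amplifies interferon production, rose from 0.543 ± 0.16 to 49.2 ± 1.78 FPKM (SD, n = 3, limma, log2 fold change 5.03, adjusted p = 2.21e-08), and Irf1 had a log2 fold change of 3.52. Stat2 and Irf9, which take part in binding the ISRE, rose as well, with log2 fold changes of 3.2 for Stat2 and 1.41 for Irf9. Of the 5 tested genes of Isg15 conjugation 4 were higher by log2 fold change, namely the ligase Herc6 by 3.43, the conjugating enzyme Ube2l6 by 2.27, the activating enzyme Uba7 by 1.9 and the ligase Trim25 by 1.7. The ligase Arih1 was at 29.5 ± 6.9 and 27.1 ± 0.677 FPKM (adjusted p = 0.638). Of 6 tested feedback inhibitors 3 were higher, with log2 fold changes of 3.64 for Socs3 and 1.23 for Socs1, and the phosphatase Ptpn6 fell by 0.67 on the log2 scale of FPKM (adjusted p = 2.37e-05) but not past the threshold on counts (adjusted p = 0.297).

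Of 16 tested genes of nucleic acid sensing 13 were higher, led by Zbp1, a sensor of Z-form nucleic acids, with a log2 fold change of 5.08 and Ifih1, the sensor MDA5, with 3.56, and 1, Traf3, fell by 0.61 on that scale. Of 44 other interferon-stimulated genes that were tested, 42 were higher and 0 lower, led by the GTPases Gbp2 and Igtp with log2 fold changes of 6.59 and 6.33. The relatives Ifit1bl1 and Ifit1bl2, which lie between Ifit3 and Ifit1, were at 0 in the controls and at 3.7, 3.09 and 3.13 FPKM and 1.39, 2.03 and 2.05 FPKM in shCTCF. The 5 genes outside the effectors with the profile most like their mean over the 6 samples, by Euclidean distance of log2(FPKM + 1), were Irf7 (0.368), Saa3 (0.567), Gbp4 (0.593), Vgf (0.724) and Gbp11 (0.781).

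**Figure D5:**
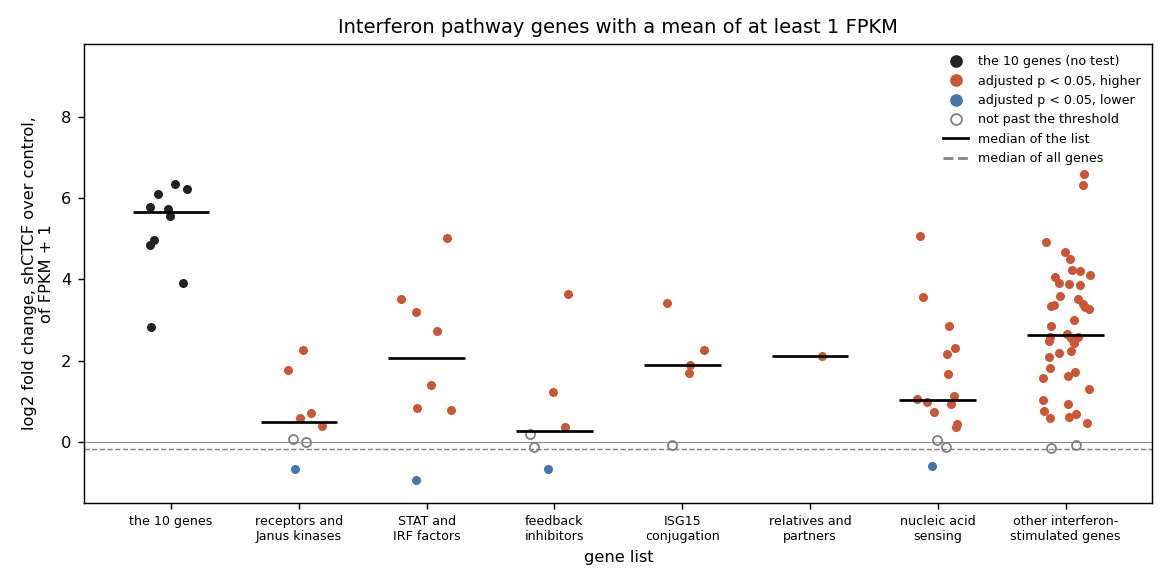
Log2 fold change of FPKM + 1, shCTCF over control (y axis), of each tested gene by list (x axis), with the list median as a bar and the median of all genes as a dashed line. The 10 effectors (black, no test) lie between 2.82 and 6.36, and 42 of 44 other interferon-stimulated genes are past the threshold and higher. The lists were chosen with earlier results of these data known, and many of their genes were tested only because of their level in shCTCF.

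The genes next to the effectors were counted because position had no part in choosing them. Within 100 kb there were 26 other genes, 18 of them under a mean of 1 FPKM. Of the 8 tested on FPKM, 3 were higher by log2 fold change, Ifit1bl1 by 2.1, Lipa, which encodes lysosomal acid lipase, by 0.82 and the tubulin gene Tuba8 by 0.43, and 4 were lower, with −1.17 for Klhl17, −0.45 for Pex26, −0.38 for 9430015G10Rik and −0.22 for Agrn. Ifit1bl1, at 0 FPKM in all controls, reached a mean of 1 FPKM only through shCTCF and could be called only as higher. The neighbours called, 7 of 8, stand beside 28.8% higher and 44.2% lower of all genes on FPKM. On counts 8 were tested, in part other genes, of which Ptgfr, Slc16a12, Rnf223 and Tuba8 were higher, with log2 fold changes of 3.24, 2.61, 1.9 and 0.6, and Plekhn1 and Klhl17 lower, with −2.28 and −1.24, beside 34.8% higher and 34.3% lower of all genes. Ptgfr, Slc16a12, Rnf223 and Plekhn1 were under a mean of 1 FPKM and not tested there, with 5, 6, 53 and 73 counts summed over the controls. Agrn, 1.94 kb from Isg15, was at 7.36 ± 0.0572 and 6.18 ± 0.334 FPKM (limma, adjusted p = 0.0437), and its difference on counts was not past the threshold (edgeR, adjusted p = 0.536). The median over all genes on FPKM was −0.17. The number of neighbours called on FPKM was between 5 and 9 when single samples were left out. The split of 3 higher and 4 lower became 5 and 2 without control replicate 1 or 3, and 5 and 4 without control replicate 2. It became 3 and 2 without shCTCF replicate 1 or 2, and 3 and 3 without shCTCF replicate 3. With a control left out, the set of genes tested changed as well. Ifit1bl2 and Rnf223, at 1.82 and 1.42 FPKM on average in shCTCF, then reached a mean of 1 FPKM, so that the added higher calls came from newly tested genes.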

How the data were processed

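RNA-seq of 3 control and 3 shCTCF samples of FGSCs was used, and groups and replicate numbers were taken from the labels. Stranded mRNA libraries were aligned by the authors to mm9 with HISAT2 (version 4.8.2 per the submitters' processing notes). The deposited counts are whole fragments per RefSeq accession, made by the authors with featureCounts 1.6.2 without strand, and fragments shared by several accessions were not assigned. The deposited FPKM were calculated by the authors with Cufflinks 2.2.1. All value columns belonged to a sample (0 without one).

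Here, 41181 of 41388 count accessions and 41680 of 41876 FPKM rows received a symbol from a RefSeq table of GRCm38.p6, used for names only, and values were summed per symbol; accessions without one held at most 0.622% of the counts. Counts were tested with edgeR 4.0.16 (TMM, filterByExpr, quasi-likelihood; R 4.3.3), and FPKM with limma 3.58.1 on log2(FPKM + 1), which understates changes of low genes, for genes averaging 1 FPKM or more. All p-values are two-sided, with Benjamini-Hochberg adjustment over all genes and a threshold of 0.05. The fits were tested on simulated data. Count ratios are per library total with exact 95% intervals; PCR copies were not told apart. The effectors and gene lists were chosen with earlier results of these data known. By the rule for named genes these were the 10 effectors, the 2 most changed called genes of each list, the pathway genes written out in that rule (of which 1 is not reported here), called neighbours within 100 kb, the 5 genes of most similar profile and Ctcf, and other genes named singly were chosen after their values were seen. Alternatives were DESeq2 1.42.0, other normalizations, filters, pseudocounts and windows, the top accession, a replicate block, omission of each sample and, added after the data were seen, the overlapping accessions at Mx1 and Mx2 and the linear folds without each sample.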

Additional observations from a re-analysis of the deposited data

How the results depend on the processing

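In all 100 alternatives computed for the log2 fold changes of single effectors, the gene was higher in shCTCF, and 0 reversed. Nothing is read from this direction, since the genes were chosen on this contrast and did not overlap between the groups. The size of the difference stayed within the limits set in 73 of the 100 and moved beyond them in 27. Ifit2 and Mx2 were not tested on counts and have no value from that table. Of 96 alternatives for totals and medians, 91 stayed within the limits set. The median log2 fold change of the effectors on counts, 8.17, became 8.02 with library size only and 7.59 without the filter, when 9 genes were included, and it was between 7.88 (without control replicate 1) and 8.21 when single samples were left out; the cause was not tested. With Mx1 at its lower bound it was also 8.17. The median on FPKM, 5.66, became 7.64 with a pseudocount of 0.1 and 9.26 with 0.01, because a smaller pseudocount compresses low control values less. With library size only, the median of all genes on counts moved from −0.02 to −0.19 and the share of higher among called genes from 50.3% to 41.5%. With the overlapping accession added, the log2 fold change of Mx1 rose from 4.98 to 6.51.

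The numbers do not pair the samples: deviations of same-numbered samples correlated at between −0.041 and 0.0395 across 9974 genes and those of different numbers at between −0.0808 and 0.0837. With the replicate block 4889 genes were called on counts and 7136 on FPKM, 53 and 79 pathway genes and 6 and 6 neighbours, and the medians of the effectors were 8.18 on counts and 5.66 on FPKM. The depth of control replicate 2 limits what can be detected in it, and the low control counts of the effectors make their ratios wide.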
